A study of Mus musculus with 6 samples.

Results

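The genes described here encode the secreted Wnt ligands, the receptors that bind them, the machinery that lets a cell secrete them, and the extracellular proteins that block or amplify the signal. They were chosen by name alone, as protein-coding genes with Wnt, Fzd, Sfrp and Dkk symbols together with Lrp5, Lrp6, Ror1, Ror2, Ryk, Porcn, Wls, Rspo1 to Rspo3, Lgr4, Lgr5, Rnf43, Znrf3 and Axin2, which gave 53 of the 54532 genes listed for each library. The rule uses names and no measured value, but it was set with earlier results of these data known. RNA was sequenced from YAMC cells, a single line that the labels call colonic epithelium of a young adult mouse and describe as wild type, in which a temperature-sensitive SV40 large T antigen is driven by an H-2Kb promoter that responds to interferon-gamma. Every culture was held at 33 °C under interferon-gamma. The treated group, 3 libraries, was given 20 µg/ml of 2'-fucosyllactose (2'-FL), a sugar found in human milk, for 6 h. The other 3 libraries were untreated controls, for which no time is given, so the groups may differ in time in culture. The title of the series concerns activation of the EGF receptor by 2'-FL in intestinal epithelial cells and protection from colitis.

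A Wnt protein is lipid-modified by Porcn, carried to the cell surface by Wls, and bound by a frizzled receptor together with the co-receptor Lrp5 or Lrp6, which stops the destruction of beta-catenin and lets it activate genes with TCF/LEF factors. Other ligands act through Ror1, Ror2 and Ryk without beta-catenin. R-spondins bind Lgr receptors and keep the ligases Rnf43 and Znrf3 from removing frizzleds. Sfrp proteins bind Wnts, and some Dkk proteins, such as Dkk1 and Dkk4, block Lrp5 and Lrp6. In the colon this signalling maintains the stem cells at the crypt base, where R-spondins and many Wnts are supplied by mesenchymal cells under the epithelium.

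Of the 53 members, 34 were on, taken as a mean of at least 1 CPM (read counts scaled to library size) over the 6 libraries, or 64.2%, and 24 had at least 10 CPM. After 2'-FL, 0 of the 37 members with enough counts to test passed edgeR's quasi-likelihood test with p adjusted by Benjamini-Hochberg across the 14129 genes tested, where 0% of all genes passed. By limma-voom 0 members passed as well, against 0% of all genes. By the DESeq2 Wald test 0 of the 28 members that received an adjusted p passed, against 0.325% of all genes. At an unadjusted edgeR p under 0.05 there were 5 members, or 13.5% of those tested, beside 7.90% of all genes. They were Wnt9a, Wnt11 and Wnt3, which were higher with 2'-FL, as 3.36% of all genes were, and Rspo3 and Lrp6, which were lower, as 4.54% of all genes were.

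Total counts ranged from 19978583 to 25251187 per library. On the principal components of all tested genes, 2'-FL replicate 2 stood apart on the first (28.0% of variance) and control replicate 1 on the second (21.7%). Among the 37 tested members, 2'-FL replicate 2 was the lowest of the 6 libraries for 13, or 35.1%, beside 24.4% of all genes tested. Control replicate 3 was the highest for 12 members, or 32.4%, beside 16.9% of all genes. Leaving out 2'-FL replicate 2 and control replicate 1 together left 34 members on and 0 passing edgeR. The labelled cell type was checked against markers. Of 10 intestinal epithelial genes, 3 averaged at least 1 CPM, the keratins Krt8, Krt18 and Krt19, while Cdh1 stood at 0.651 CPM, Epcam at 0.337 CPM and the intestinal transcription factors Cdx1 and Cdx2 at 0. The epithelial sum, nearly all from these keratins, was 945 to 1190 CPM after 2'-FL and 846 to 979 CPM in controls. All 5 mesothelial markers (Upk3b, Upk1b, Msln, Wt1, Lrrn4) and 7 of 8 fibroblast markers averaged at least 1 CPM. The mesothelial ones ran from 233 CPM for Lrrn4 to 1792 CPM for Upk3b. The intestinal genes other than Krt8, Krt18 and Krt19 were all below 1 CPM. These markers thus do not bear out the label of colonic epithelium, and the levels below describe these cultures only. Summed over the lists, mesothelial markers gave 4260 to 4480 CPM after 2'-FL, against 4060 to 4390 CPM in controls. The fibroblast sums were 7140 to 8310 and 6680 to 6950 CPM, mostly from Col1a1 and Col3a1, which averaged 3555 and 2695 CPM. Of the 7 fibroblast markers tested, 4 were higher with 2'-FL and 3 lower. Only Thy1 and Col3a1, both higher, had an unadjusted edgeR p under 0.05. For both, every 2'-FL library lay above every control. They differed by 0.59 ± 0.16 and 0.20 ± 0.07 on the log2 scale (SE), and neither passed (edgeR adjusted p = 0.372 and 0.502). The sums of 5 smooth muscle genes were 218 to 469 and 138 to 197 CPM, nearly all from Acta2, at 253 CPM on average. Only 3 of these 5 were on, and Cnn1, Des, Myh11 and Actg2 averaged 5.39, 3.03, 0.381 and 0.360 CPM. All 3 tested, Acta2, Cnn1 and Des, were higher with 2'-FL. They differed by 1.01 ± 0.20, 0.74 ± 0.24 and 0.37 ± 0.30 on the log2 scale (SE). Of the 3 tested, only Acta2 had groups that did not overlap. Acta2 and Cnn1 had an unadjusted edgeR p under 0.05, but none of the 3 passed (edgeR adjusted p = 0.197, 0.476 and 0.804). Of 3 endothelial markers 1 was on, Kdr at 4.70 CPM, with Pecam1 at 0.285 and Cdh5 at 0.0931 CPM, and the sums were 4.89 to 6.06 CPM after 2'-FL and 3.56 to 6.84 CPM in controls. Of 3 immune markers 1 was on, Cd68 at 23.8 CPM, with Ptprc at 0.0298 and Cd3e at 0 CPM, and the sums were 23.4 to 26.9 and 18.7 to 27.0 CPM. In bulk RNA, fewer cells of a type and less RNA per cell cannot be told apart, and the part of these marker levels in the Wnt results was not tested.

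Sequences just upstream of the start of transcription are shown for 4 members described below. The levels and fold changes below come from counts and do not depend on these sequences. The first is Wnt9a, the highest ligand per kb, beside its neighbour Wnt3a, which was not on. Then come Wnt11, the ligand with the smallest p after 2'-FL, and Axin2, a feedback gene of beta-catenin. Each run holds the 250 bases before the start given by RefSeq on GRCm38.p6, 5′ to 3′ on the gene's strand, with any match to the TCF/LEF motifs CTTTGAT and CTTTGAA, searched on both strands, in capitals.
Wnt9a, chr11:59306680-59306929, plus strand: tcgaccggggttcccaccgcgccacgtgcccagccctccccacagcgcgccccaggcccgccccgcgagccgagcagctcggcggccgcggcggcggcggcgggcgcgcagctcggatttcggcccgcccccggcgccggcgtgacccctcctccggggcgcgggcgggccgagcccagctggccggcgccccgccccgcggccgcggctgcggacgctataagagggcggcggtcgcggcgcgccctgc
Wnt3a, chr11:59290752-59291001, minus strand: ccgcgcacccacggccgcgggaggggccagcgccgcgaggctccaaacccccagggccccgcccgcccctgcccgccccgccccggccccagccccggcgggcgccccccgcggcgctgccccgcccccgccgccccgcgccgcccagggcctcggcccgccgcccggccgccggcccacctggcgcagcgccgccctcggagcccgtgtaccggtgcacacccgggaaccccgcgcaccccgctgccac
Wnt11, chr7:98834862-98835111, plus strand: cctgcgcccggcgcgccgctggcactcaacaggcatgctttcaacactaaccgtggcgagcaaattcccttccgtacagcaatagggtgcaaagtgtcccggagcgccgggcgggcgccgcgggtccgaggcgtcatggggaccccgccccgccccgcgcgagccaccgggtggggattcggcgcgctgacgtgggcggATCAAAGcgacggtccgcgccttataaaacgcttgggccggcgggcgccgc
Axin2, chr11:108920099-108920348, plus strand: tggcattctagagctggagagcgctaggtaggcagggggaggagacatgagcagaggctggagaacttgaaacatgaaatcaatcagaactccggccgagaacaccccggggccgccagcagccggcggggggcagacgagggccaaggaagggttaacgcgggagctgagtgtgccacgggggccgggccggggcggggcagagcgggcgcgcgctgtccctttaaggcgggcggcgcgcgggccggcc

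A single match appears among these 4 windows, at Wnt11, on the reverse strand with its first base at -51 from the start. Wnt11 has another RefSeq start downstream, whose window held no match. Upstream windows were found for 34 members, 38 windows in all, and 3 of them held a match, those of Wnt11, Dkk1 and 1 of 3 starts of Wnt5b, beside 7.48% of the 32851 windows in the table. A match describes these letters and shows no binding. Other forms of the motif and bases outside these windows were not searched. A window without a match thus does not show that a gene lacks TCF/LEF sites. The windows of Wnt9a and Wnt3a were both rich in G and C, at 84.4% and 87.6%, with 1.09 and 0.927 times the CpG dinucleotides that their base content gives. Over the 22 windows of members that were on, GC content ran from 51.2% to 85.2% with a median of 67.4%. Over the 16 windows of members that were not on, it ran from 44.4% to 87.6% with a median of 62.2%, so the ranges overlapped, and the median of all windows was 52.4%. The median CpG ratio was 0.764 for members that were on, 0.670 for those that were not, and 0.373 for all windows.

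Levels of different genes were compared per kilobase of exon length, as CPM per kb. Of the 19 Wnt ligand genes, 10 were on, and Wnt9a, Wnt11 and Wnt5a together made up 74.4% to 78.0% of the ligand total per kb in each of the 6 libraries. Wnt9a led, at 22.8 ± 2.15 CPM per kb, followed by Wnt11 at 16.4 ± 1.73 CPM per kb and Wnt5a at 13.5 ± 1.01 CPM per kb (SD, n = 6 for each). Wnt5a and Wnt11 are best known for signalling without beta-catenin. Wnt10a reached 9.04 ± 1.36 CPM per kb (SD, n = 6). The level of Wnt2b was 2.77 CPM per kb, that of Wnt3 was 1.62 and that of Wnt4 was 1.53, and the last pair differed by less than their SDs of 0.385 and 0.217. Wnt6, Wnt5b and Wnt7b were on at 1.15 to 1.31 CPM, just above the threshold, and Wnt10b lay just below it at 0.726 CPM. The remaining 8 ligands were near or at background: Wnt8a, Wnt2, Wnt1, Wnt7a, Wnt3a, Wnt9b and Wnt16 had between 1 and 10 counts over the 6 libraries. Wnt8b had 0 counts, which allows up to 0.0231 CPM at 3 counts of the 129715355 in all, for counting error only. Canonical ligands used in many laboratory assays, Wnt1 and Wnt3a, thus had 10 and 5 counts.

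**Figure D1:**
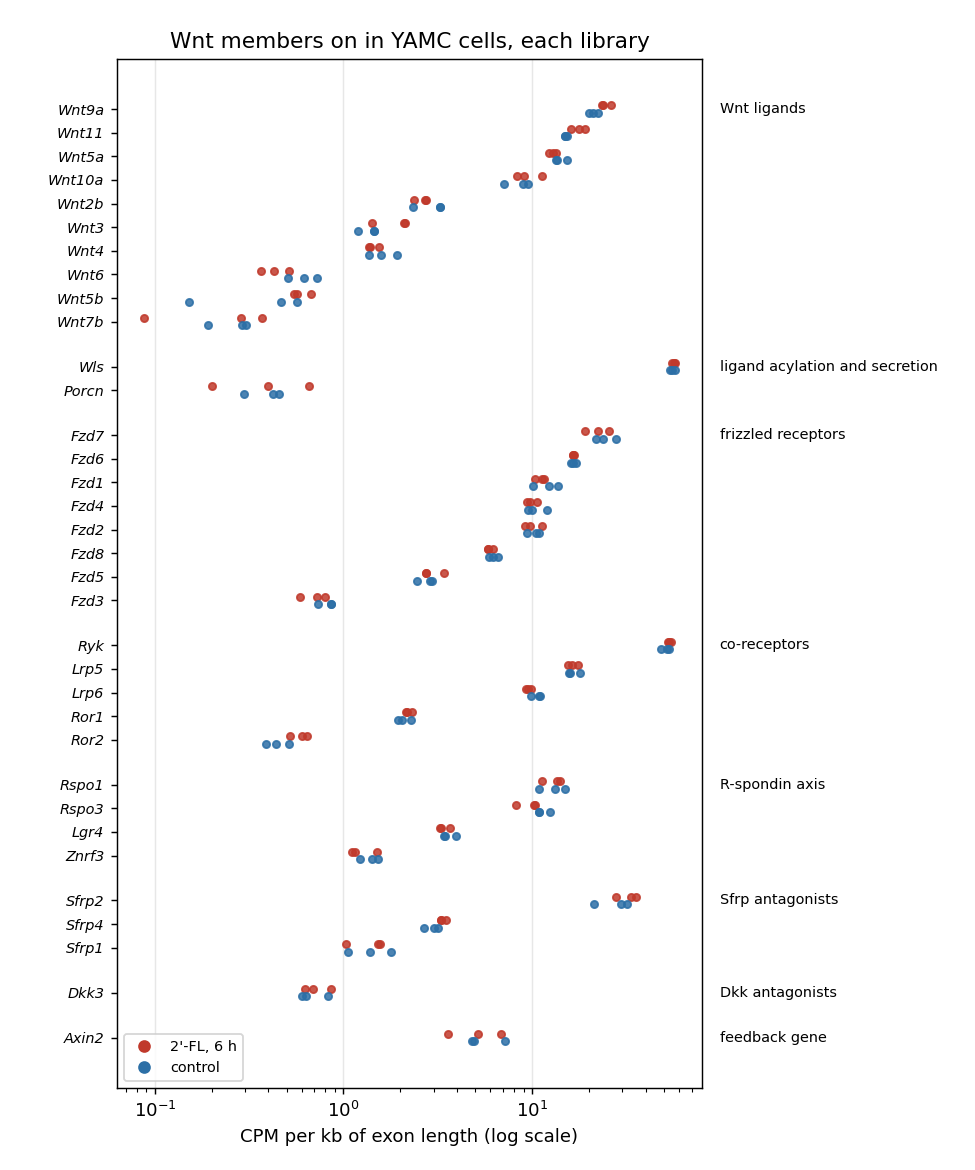
Level of the 34 members that were on, in CPM per kb of exon length on a log axis, with 1 point for each of 3 2'-FL libraries (red) and 3 control libraries (blue), grouped by role. Wls and Ryk stand highest, at 55.8 and 52.3 CPM per kb on average, and within most genes the points of both groups overlap.

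Several mouse Wnt genes lie in adjacent pairs, and the members of a pair were transcribed at different levels. On chromosome 11 (GRCm38), Wnt9a (59306928 to 59333552, plus strand) and Wnt3a (59248033 to 59290752, minus strand) are 16.2 kb apart with 0 listed genes between them. Wnt9a had 9860 counts over the 6 libraries and Wnt3a had 5. On the same chromosome Wnt3 and Wnt9b, 24.3 kb apart, had 645 and 2 counts. On chromosome 1, Wnt10a and Wnt6 are 6.19 kb apart on the plus strand, with 2913 and 149 counts. On chromosome 15, Wnt10b and Wnt1, 11.7 kb apart, had 92 and 10 counts. Within each of these 4 pairs the gene with the higher level per kb is named first. Neither Wnt10b nor Wnt1 was on. In 3 pairs, theirs among them, the second gene was not on. The exception was Wnt6, which averaged 1.15 ± 0.284 CPM (SD, n = 6).

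Among the tested members, the smallest unadjusted edgeR p after 2'-FL belonged to the ligands Wnt11 and Wnt9a. Wnt9a stood at 79.3, 78.1 and 87.0 CPM in 2'-FL replicates 1 to 3 and at 70.2, 74.6 and 66.8 CPM in control replicates 1 to 3. Every 2'-FL library lay above every control. The log2 fold change was 0.21 ± 0.07 (SE), with a 95% interval of 0.05 to 0.36 and an edgeR adjusted p of 0.502. Wnt11 stood at 66.2, 79.1 and 73.5 CPM with 2'-FL and at 63.5, 61.9 and 61.6 CPM in controls. Its groups did not overlap either, with 2'-FL replicate 1 nearest to the controls. The log2 fold change was 0.23 ± 0.08 (SE), with a 95% interval of 0.07 to 0.39 and an edgeR adjusted p of 0.496. Wnt3, a ligand of the beta-catenin branch, was at 6.41, 4.36 and 6.49 CPM with 2'-FL and at 4.45, 4.45 and 3.67 CPM in controls. Here 2'-FL replicate 2 lay within the range of the controls. A log2 fold change of 0.45 ± 0.20 (SE) did not pass either (edgeR adjusted p = 0.614).

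Wnt5a, the ligand with the most counts, leaned the other way. It was at 101, 95.8 and 104 CPM in 2'-FL replicates 1 to 3 and at 105, 106 and 120 CPM in the controls. The groups did not overlap, though 2'-FL replicate 3 and control replicate 1 were within 1 CPM of each other. The log2 fold change was -0.13 ± 0.07 (SE), with a 95% interval of -0.28 to 0.02 and an edgeR adjusted p of 0.693. It was -0.065 without control replicate 3, the highest library, and -0.17 without control replicate 1. The share of Wnt5a in the ligand total per kb was 16.7% to 18.7% with 2'-FL and 19.8% to 23.4% in controls. That of Wnt9a was 32.0% to 35.6% and 30.8% to 32.7%. The ligand sum was 296 to 314 CPM after 2'-FL, against 286 to 296 CPM in controls. Wnt10a, Wnt2b and Wnt4 differed by 0.17 ± 0.13, -0.18 ± 0.14 and -0.19 ± 0.17 on the log2 scale (SE), and their groups overlapped. In all, 5 of 11 tested ligands had values above 0 and 6 below.

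**Figure D2:**
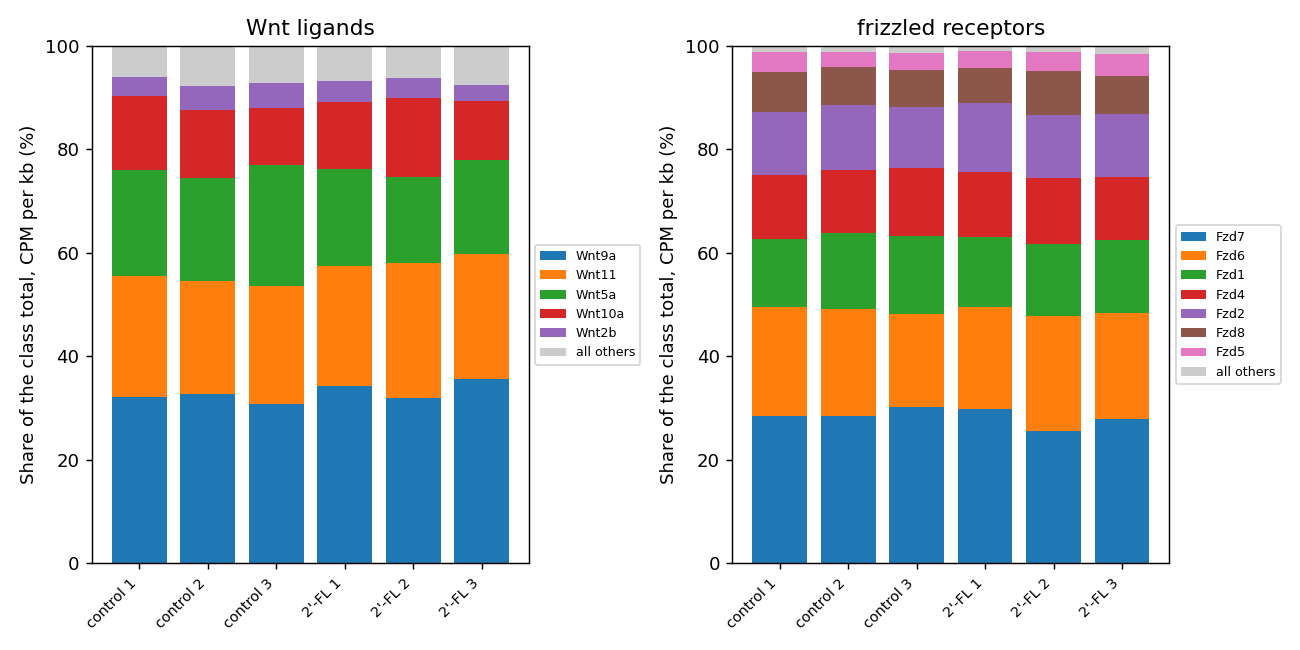
Share of each gene in the class total per kb, in percent, for Wnt ligands (left) and frizzled receptors (right), with 1 bar per library. Wnt9a, Wnt11 and Wnt5a fill 74.4% to 78.0% of the ligand bars, and Fzd7, Fzd6, Fzd1, Fzd4 and Fzd2 fill 86.7% to 88.9% of the frizzled bars.

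Of the genes for ligand maturation and release, Wls was the member with the highest level of all 53, while Porcn was close to the threshold. Wls, the carrier that brings Wnts to the cell surface, was at 503, 487 and 495 CPM with 2'-FL and at 482, 505 and 471 CPM in controls. Its level of 55.8 ± 1.51 CPM per kb (SD, n = 6) lay at percentile 94.0 of the genes tested. The groups overlapped, and the log2 fold change was 0.03 with a 95% interval of -0.11 to 0.16, so larger differences lie outside the interval. Porcn, the acyltransferase, averaged 1.22 ± 0.461 CPM (SD, n = 6), or 0.405 CPM per kb, at percentile 9.75. It had 157 counts in all, and its 95% interval of -0.85 to 1.04 on the log2 scale was wide and held changes of either direction.

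Frizzled receptors were broadly on, with 8 of 10 genes past the threshold and 5 of them, Fzd7, Fzd6, Fzd1, Fzd4 and Fzd2, making up 86.7% to 88.9% of the class per kb. Fzd7 led at 23.3 ± 3.02 CPM per kb, then Fzd6 at 16.5 ± 0.368 and Fzd1 at 11.6 ± 1.34 CPM per kb (SD, n = 6 each). Fzd4 and Fzd2 did not differ beyond their spread, at 10.2 ± 1.01 and 10.1 ± 0.863 CPM per kb (SD, n = 6 each). Fzd8 followed at 6.09 CPM per kb on the deposited length, which differs from the exon union of the annotation. Fzd5, a receptor known for a role in intestinal Paneth cells, was at 2.86, and Fzd3 at 0.760 CPM per kb. Fzd9 and Fzd10 were not on, with 42 and 50 counts over the 6 libraries.

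No frizzled gene had an unadjusted p under 0.05 by edgeR. Fzd7 was at 115, 86.0 and 101 CPM with 2'-FL and at 99.1, 107 and 126 CPM in controls. It was lowest in 2'-FL replicate 2 and highest in control replicate 3, and the log2 fold change of -0.13 ± 0.10 (SE) had an edgeR adjusted p of 0.789. Without either of those libraries it was -0.030 and -0.027, in that order, and without 2'-FL replicate 1 it was -0.24. Fzd6 was at 80.2, 79.5 and 79.0 CPM after 2'-FL, against 77.3, 82.7 and 79.3 CPM in controls. For this receptor the log2 fold change was 0.00, with a 95% interval of -0.14 to 0.13. Fzd1 was at 48.4, 43.5 and 47.4 CPM after 2'-FL, against 42.4, 51.7 and 57.7 CPM in controls, again overlapping, with a log2 fold change of -0.13 ± 0.10 (SE). For Fzd1 this was -0.015 without control replicate 3, -0.081 without 2'-FL replicate 2 and -0.24 without control replicate 1. Of the 8 tested receptors, 7 had values below 0 and 1, Fzd5, above 0, with a median of -0.07, beside 48.4% of all genes above 0 and a median of -0.01. For these 8 genes 2'-FL replicate 2 was the lowest library 4 times and control replicate 3 the highest 5 times. The part of those libraries in the lean was not tested.

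The co-receptors of both branches were on. Ryk, an atypical kinase-like receptor that binds Wnts, had the second highest level per kb of the 53, at 52.3 ± 2.05 CPM per kb, and made up 62.2% to 65.7% of its class. Lrp5 was at 16.5 ± 1.02 and Lrp6 at 10.04 ± 0.737 CPM per kb (SD, n = 6 each). The Wnt5a receptors Ror1 and Ror2 were lower, at 2.15 ± 0.138 and 0.517 ± 0.0948 CPM per kb (SD, n = 6 each). Lrp6 was at 135, 130 and 126 CPM with 2'-FL and at 151, 134 and 149 CPM in controls. Control replicate 2 fell within the range of the 2'-FL libraries. Lrp6 differed by a log2 fold change of -0.15 ± 0.07 (SE), with a 95% interval of -0.29 to -0.01 and an edgeR adjusted p of 0.602. Its partner Lrp5 was at 171, 151 and 158 CPM with 2'-FL and at 153, 155 and 174 CPM in controls, a log2 fold change of 0.00 with a 95% interval of -0.16 to 0.15. Whether the Lrp5 and Lrp6 values differ from each other was not tested. Ryk had a log2 fold change of 0.06 ± 0.06 (SE), with overlapping groups. Ror2 was at 2.56, 2.71 and 2.20 CPM after 2'-FL, against 1.87, 1.64 and 2.18 CPM in controls, and the groups did not overlap, with 2'-FL replicate 3 and control replicate 3 almost equal. Its log2 fold change of 0.40 ± 0.28 (SE) did not pass (edgeR adjusted p = 0.773).

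**Figure D3:**
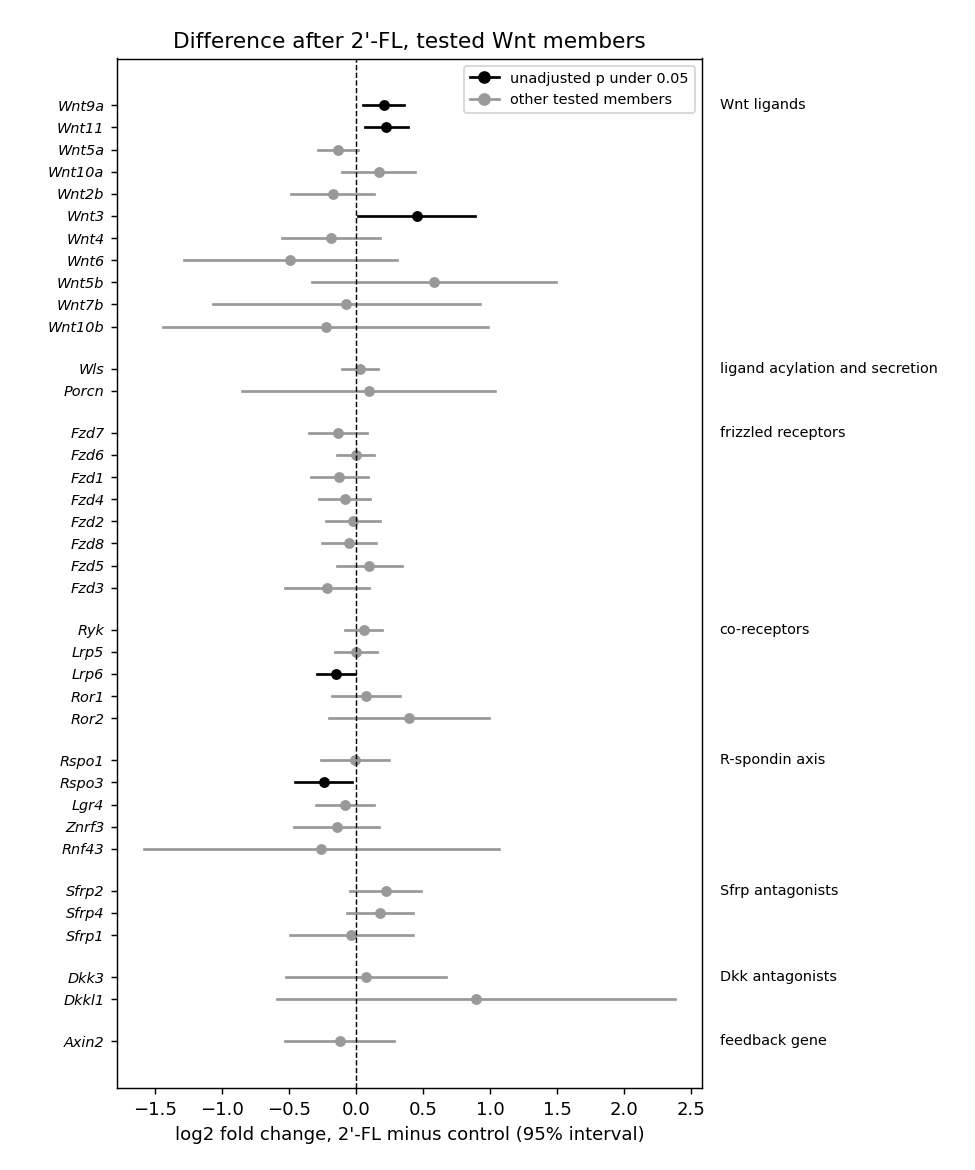
Log2 fold change of the 37 tested members, 2'-FL minus control, as points with 95% intervals from edgeR, grouped by role, with the 5 members at an unadjusted p under 0.05 in black. Wnt9a, Wnt11 and Wnt3 lie above 0 and Rspo3 and Lrp6 below, while none passed after adjustment.

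In the R-spondin axis the cells transcribed Rspo1 and Rspo3 and their receptor Lgr4, but not the stem cell receptor Lgr5. Rspo1 was at 13.0 ± 1.58 CPM per kb and Rspo3 at 10.5 ± 1.34 CPM per kb (SD, n = 6 each), and Rspo2 had 0 counts. Lgr4 was at 3.51 ± 0.262 CPM per kb (SD, n = 6), whereas Lgr5, the marker of crypt stem cells, had 1 count over the 6 libraries. Of the ligases that remove frizzleds, Znrf3 averaged 10.4 CPM and Rnf43 0.569 CPM. Rspo3 was at 31.9, 25.4 and 31.6 CPM with 2'-FL and at 33.4, 33.5 and 38.3 CPM in controls. All 2'-FL libraries lay below all controls, with 2'-FL replicate 2 lowest. The log2 fold change was -0.24 ± 0.10 (SE), with a 95% interval of -0.46 to -0.03 and an edgeR adjusted p of 0.580. With 1 library left out in turn it ran from -0.3 without 2'-FL replicate 1 to -0.14 without 2'-FL replicate 2. Rspo1 was at 26.3, 21.8 and 27.1 CPM with 2'-FL and at 21.1, 28.9 and 25.6 CPM in controls. These values overlapped, and the log2 fold change was -0.01 with a 95% interval of -0.26 to 0.24. Lgr4 and Znrf3 differed by -0.08 ± 0.10 and -0.14 ± 0.15 on the log2 scale (SE), also with overlapping groups. With all libraries the 5 tested members of this axis had values below 0, where 48.4% of all genes were above 0, and 0 passed by edgeR. Rspo1 was above 0 without 2'-FL replicate 2 (0.081), control replicate 2 (0.10) or control replicate 3 (0.0068).

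Among secreted antagonists, 3 of 4 Sfrp genes and 1 of 5 Dkk genes were on. Sfrp2 made up 85.1% to 88.7% of the Sfrp total per kb, at 29.9 CPM per kb on average, the highest level of any secreted member. It was at 72.1, 76.1 and 59.6 CPM with 2'-FL and at 46.0, 68.8 and 63.5 CPM in controls. The groups overlapped, with control replicate 1 low. The log2 fold change was 0.22 ± 0.12 (SE), with an edgeR adjusted p of 0.711, and it was -0.0044 without control replicate 1 and 2'-FL replicate 2. With 1 library left out in turn it ran from 0.069 without control replicate 1 to 0.34 without control replicate 2. Sfrp4 was at 13.7, 14.5 and 13.7 CPM with 2'-FL and at 11.2, 13.3 and 12.6 CPM in controls. All 2'-FL values lay above the controls, and the log2 fold change of 0.18 ± 0.12 (SE) had an edgeR adjusted p of 0.746. Sfrp1 averaged 6.08 ± 1.30 CPM (SD, n = 6), with a log2 fold change of -0.03, and Sfrp5 had 0 counts.

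Of the Dkk genes, Dkk3, a divergent member, was the 1 gene on, at 2.37 ± 0.376 CPM (SD, n = 6). Its log2 fold change was 0.07 with a 95% interval of -0.52 to 0.67. Dkk1 and Dkk4, inhibitors of Lrp5 and Lrp6 and themselves known targets of beta-catenin, had 0 counts in every library. Dkk2 had 36 counts and was not tested, at 0.299, 0.565 and 0.300 CPM after 2'-FL, against 0.202, 0.0469 and 0.198 CPM in controls. Dkkl1 averaged 0.582 CPM, with 0 counts in control replicate 1, and its 95% interval ran from -0.59 to 2.38.

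Axin2, a scaffold of the beta-catenin destruction complex and a widely used readout of the pathway, was on at 5.42 ± 1.37 CPM per kb (SD, n = 6). It was at 37.7, 19.6 and 28.5 CPM in 2'-FL replicates 1 to 3 and at 26.5, 27.1 and 39.7 CPM in control replicates 1 to 3. The ranges of the groups overlapped, with 2'-FL replicate 2 lowest and control replicate 3 highest, the same libraries that were lowest and highest for Fzd7. The log2 fold change was -0.12 ± 0.19 (SE), with a 95% interval of -0.53 to 0.29 and an edgeR adjusted p of 0.916. It was 0.093 without 2'-FL replicate 2 and 0.098 without control replicate 3.

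**Figure D4:**
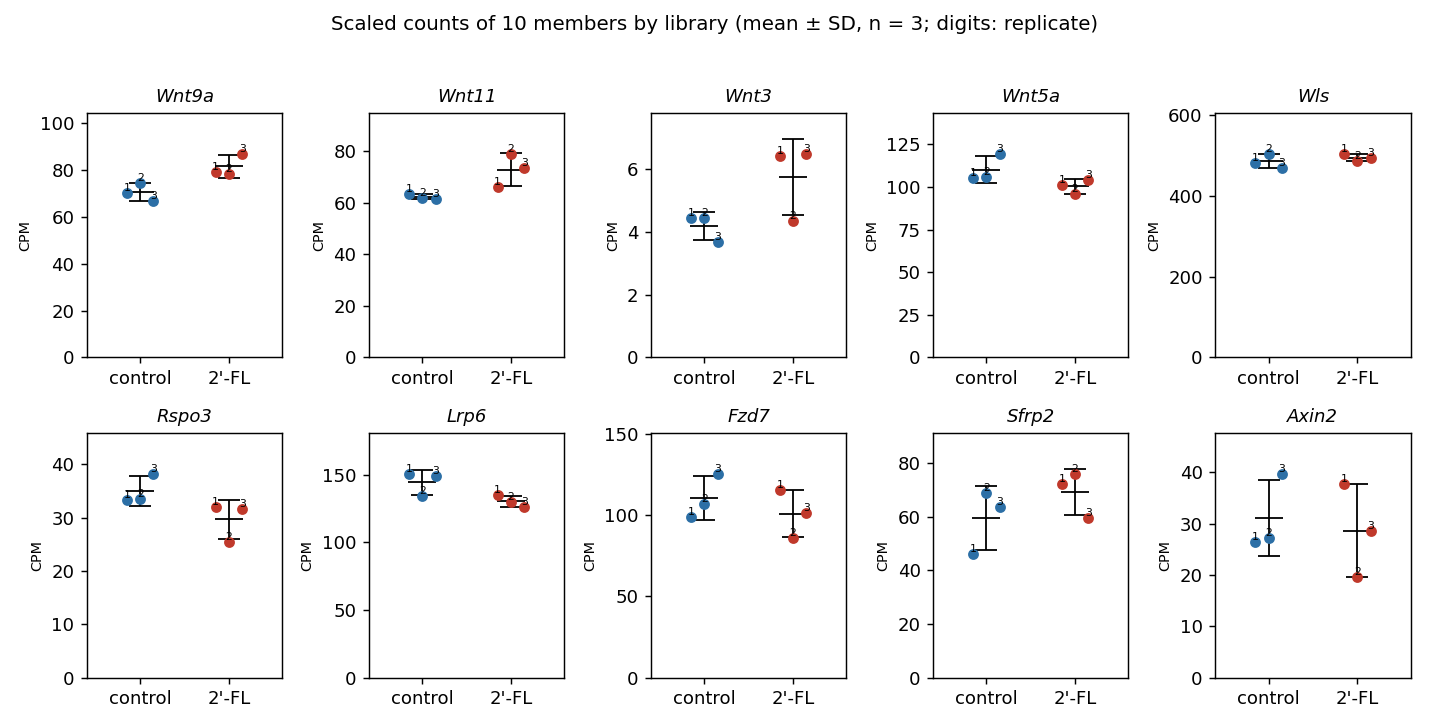
Scaled counts in CPM of 10 members in each library, controls in blue and 2'-FL in red, with the replicate number above each point and the mean ± SD (n = 3) in black. The groups separate for Wnt9a, Wnt11, Wnt5a and Rspo3 and overlap for Wnt3, Wls, Lrp6, Fzd7, Sfrp2 and Axin2.

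Over all tested members, 6 had groups that did not overlap, or 16.2%, beside 13.1% of all genes. The 4 above were Wnt9a, Wnt11, Sfrp4 and Ror2, beside 6.74% of all genes, and the 2 below were Wnt5a and Rspo3, beside 6.31%. The share of members is near that background. There were 15 members above 0 and 22 below, with a median log2 fold change of -0.02, beside -0.01 for all genes tested. Without 2'-FL replicate 2 there were 21 above and 16 below, with a median of 0.038, and without control replicate 3 there were 22 above and 15 below, with a median of 0.026. Leaving out any other single library gave a median from -0.058 to -0.017. For 24 of the 37 members the whole 95% interval lay within 0.5 of 0 on the log2 scale. The intervals of the other 13, all with a mean of 29.8 CPM or less, reached past 0.5 on at least 1 side.

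The rest of the pathway, 85 genes in 5 lists, gave 0 of 69 tested genes passing by edgeR or limma-voom, beside 0% of all genes. DESeq2 gave some of the 69 no adjusted p. Of those that received one 0 passed, beside 0.325% of all genes. There were 5 at an unadjusted edgeR p under 0.05, 2 higher and 3 lower, where 3.36% of all genes were higher and 4.54% lower. The core of the beta-catenin machinery was abundant, with Ctnnb1, beta-catenin itself, averaging 569 ± 13.9 CPM in treated and 560 ± 11.6 CPM in untreated libraries, and the kinase Csnk1a1 419 ± 10.4 and 412 ± 4.76 CPM (SD, n = 3 per group). In this list of 18, the scaffold Amer1 differed by -0.18 ± 0.08 (SE) on the log2 scale, with an adjusted p of 0.617 by edgeR. Among nuclear effectors, 12 of 15 were on. The TCF factors Tcf7l2, Tcf7l1 and Tcf7 averaged 17.7, 12.8 and 12.2 CPM and Lef1 0.0332 CPM. The co-repressor Ctbp1 at 237 CPM and the co-activator Bcl9l at 118 CPM were the most abundant of that list. The co-activator Bcl9 differed by -0.20 ± 0.08 (SE) on the log2 scale, with an adjusted p of 0.562 by edgeR.

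Genes described as targets of beta-catenin ranged from abundant to not detected. Wisp1, Cd44 and Ccnd1 averaged 373, 333 and 223 CPM, with log2 fold changes of -0.03, 0.00 and 0.07 that did not pass. The intestinal stem cell factor Ascl2 averaged 0.407 CPM, Nkd1, a feedback inhibitor, 0.617 CPM, and Sp5 and Mmp7 were at 0 counts. Wisp2 averaged 2.83 ± 0.337 CPM in treated and 1.71 ± 0.243 CPM in untreated libraries (SD, n = 3 per group), with groups that did not overlap. Its log2 fold change of 0.72 ± 0.28 (SE) had an edgeR adjusted p of 0.554, and DESeq2 gave it no adjusted p. Of 13 tested targets 8 were above 0 and 5 below, with a median of 0.05.

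Outside the rule, Ptk7, a pseudokinase co-receptor of planar polarity, averaged 479 CPM. The cell surface proteoglycan Gpc4 averaged 146 ± 17.2 CPM in treated and 122 ± 7.17 CPM in untreated libraries (SD, n = 3 per group), with overlapping groups. The difference of 0.26 ± 0.08 (SE) on the log2 scale did not pass (adjusted p = 0.476 by edgeR). The secreted antagonists Wif1, Cer1 and Sost were at 0 counts, as Dkk1 was, while the Dkk receptor Kremen1 averaged 28.4 CPM. Frzb, Notum, Draxin and Sostdc1, of the same list, had counts but were not on, at 0.925, 0.715, 0.344 and 0.0654 CPM. In the planar polarity and calcium list, 17 of 19 genes were on, led by the GTPases Rac1 and Rhoa at 502 and 360 CPM. Prickle2 averaged 13.8 ± 0.638 CPM in treated and 17.6 ± 2.91 CPM in untreated libraries (SD, n = 3 per group), with groups that did not overlap. Its log2 fold change of -0.35 ± 0.13 (SE) did not pass (edgeR adjusted p = 0.503).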

How the data were processed

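Each library has 1 deposited table of raw counts, 1 value per gene, with a gene length in bases that equals the union of annotated exons for 51 of the 53 members. Tools listed in the submitters' processing notes are Bowtie2 (version 2.7.3a), FastQC (0.11.9) and bcl2fastq; the build they list is GRCh38, while the genes are mouse genes. Of the 53 members 52 have the same start and end on GRCm38, which is used here. How reads were counted, and whether strand was used, was not given in the sources used here. Genes on the opposite strand share exon bases with 8 members, and had at most 138 counts, at Wnt5a. Nothing in the labels says that replicates are separate cultures, so p-values cover only the spread among these samples, and that spread may be technical.

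The fit used edgeR 4.0.16 in R 4.3.3 (filterByExpr with a minimum count of 10, TMM scaling, glmQLFit and glmQLFTest), 2'-FL minus control over 6 libraries, with Benjamini-Hochberg adjustment over 14129 genes and a threshold of 0.05. CPM are counts over the TMM-scaled total of the genes tested. DESeq2 1.42.0 and limma-voom (limma 3.58.1) were alternatives, and the test was checked on simulated data. Members, lists and roles were chosen with earlier results of these data known. Members are named where their unadjusted p was under 0.05 or where they were among the 3 highest per kb in their role, and others by counts, ranges or levels. Of the pathway lists, genes at an unadjusted p under 0.05 and the 2 most abundant per list are named, and some others were named after their values were seen. Floors cover counting error only.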

Additional observations from a re-analysis of the deposited data

How the results depend on the processing

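The number of members passing was 0 under each alternative run: upper-quartile and DESeq2 size-factor scaling, no filter on low counts, a minimum of 1 CPM in 3 libraries, DESeq2, limma-voom, robust estimation, the replicate block, each library left out, and 2'-FL replicate 2 with control replicate 1 left out, the last chosen after seeing the data. The same held for the 69 pathway genes. The number on was 34 under both other scalings and with libraries left out, 37 at a level of 0.5 CPM and 30 at 2 CPM. Genes passing over the whole table, 0 with all libraries, were 158 without a filter (prior degrees of freedom infinite), 37 by DESeq2, 5 with robust estimation, 1 with the replicate block, and 0 to 28 with 1 library left out, at 21 without 2'-FL replicate 1 and 28 without control replicate 2; the cause was not tested. Same-numbered libraries did not deviate together (correlations of -0.117, -0.0676 and -0.0511), so the numbers are not read as pairs, and the block called 0 members.

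Unadjusted p was under 0.05 in 15 of 16 settings for Wnt9a (adjusted p 0.268 to 0.930), 14 for Wnt11 (0.187 to 0.988), 13 for Rspo3 (0.383 to 1.0), 9 for Wnt3 (0.557 to 0.932) and 8 for Lrp6 (0.318 to 0.999). These members were picked by that p in the main run, which is counted among the 16 settings. All settings reuse the same libraries, so these counts are not independent support. Of 314 alternative values of 21 members, 26 changed sign, in 9 members, none of which passed in any setting. With 1 library left out in turn, log2 fold changes ran from -0.37 to 0.098 for Axin2, -0.063 to 0.23 for Dkk3, -0.025 to 0.024 for Fzd6, -0.054 to 0.065 for Lrp5, -0.4 to 0.44 for Porcn, -0.12 to 0.1 for Rspo1 and -0.2 to 0.18 for Sfrp1. Axin2, Rspo1, Lrp5 and Sfrp1 were above 0 without 2'-FL replicate 2 and without control replicate 3. Other values of opposite sign were -0.055 for Porcn by limma-voom, 3.4e-05 with DESeq2's size factors, 1.7e-05 by DESeq2 and 0.0046 without a filter for Fzd6, and 0.00083, 0.00083 and 0.0054 in the same order for Lrp5. Without both libraries that stood apart, Lgr4 was at 0.013, Lrp5 at 0.0052 and Sfrp2 at -0.0044. Of members that kept their sign, Sfrp4 was at 0.11 and Ryk at 0.018 without control replicate 1. The cause was not tested.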
